A study of Homo sapiens with 6 samples.

Results

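The H3K27me3 ChIP-seq peaks of MDA-MB-231 cells with an shRNA against E2F1 (shE2F1) were compared with those of cells with a control shRNA. MDA-MB-231 is an established cell line of human triple-negative breast cancer (TNBC), in which the study examined EZH2 together with E2F1. Every peak of the 2 broad-peak lists was taken, which gave 123957 peaks in control shRNA and 135683 in shE2F1, or 259640 of the 290675 peaks in the 5 peak lists of the series. Both groups were transduced with lentivirus for 24 h and then selected with puromycin at 2 µg/ml for 72 h, and chromatin of both was immunoprecipitated for trimethylated lysine 27 of histone H3 (H3K27me3). By their labels, the groups differed in the hairpin alone. The other 3 lists hold E2F1 peaks of cells without a hairpin, which were untreated or treated with DMSO (the solvent) or with GSK126, an EZH2 inhibitor. Each group had 1 library, so the differences carry no replicate check and no test between the groups was possible. The intervals are exact Clopper-Pearson intervals at 95% and cover counting error only. Whether the hairpin lowered E2F1 cannot be read from peak lists, although the study reported a marked fall of E2F1 expression in its knockdown.

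H3K27me3 is written by Polycomb repressive complex 2 (PRC2), in which EZH2 is the methyltransferase and SUZ12 and EED are required partners. It is known to form broad domains of modest enrichment over silent genes, with the HOX clusters and other CpG-rich developmental regulators among its best known targets. Active housekeeping promoters usually lack it. Open, GC-rich promoters can also give narrow peaks in ChIP-seq without carrying the mark that was immunoprecipitated. Which genes were active was not measured in these libraries, so gene classes are called usually active or usually silent from general knowledge.

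Examples of the sequence under strong promoter peaks and under the widest peaks are given on hg38. The first set lies directly upstream of RefSeq gene starts, within promoter peaks that were among the strongest of their gene lists in both libraries. Capitals mark CG dinucleotides and lower case the other bases, written 5′ to 3′ on the strand of the gene.

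RPLP2, chr11:809817-809966, plus strand: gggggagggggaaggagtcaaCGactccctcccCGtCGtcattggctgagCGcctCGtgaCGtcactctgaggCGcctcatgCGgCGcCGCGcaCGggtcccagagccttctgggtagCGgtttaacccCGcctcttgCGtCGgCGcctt
ZNF615, chr19:52008212-52008361, minus strand: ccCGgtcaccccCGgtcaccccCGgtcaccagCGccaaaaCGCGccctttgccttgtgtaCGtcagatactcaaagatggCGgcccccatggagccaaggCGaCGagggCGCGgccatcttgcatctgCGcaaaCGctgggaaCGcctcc
EZH2, chr7:148884292-148884441, minus strand: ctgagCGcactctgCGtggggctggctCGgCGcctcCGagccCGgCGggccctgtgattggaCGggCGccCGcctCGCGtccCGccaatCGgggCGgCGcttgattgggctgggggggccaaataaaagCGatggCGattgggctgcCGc

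Each window is 150 bases long. RPLP2, which encodes an acidic protein of the ribosomal stalk, held 17 CG and 68.0% GC. ZNF615, a zinc finger gene of the cluster on chromosome 19, held 15 CG and 66.0% GC. EZH2 held 19 CG and 72.7% GC. These windows were rich in CG, since the median over the same window of 34961 RefSeq promoters was 7 and only 27.1% of them held 15 or more.

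The second set is the middle 150 bases of the widest peak of each list, given as examples that need not stand for the whole domain. Both lay in introns, the first in the pseudogene PIEZO1P2 and the second in DSCAML1, a neuronal cell adhesion gene. The strand is the plus strand of the reference.

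Widest control shRNA peak, chr20:58768430-58768579: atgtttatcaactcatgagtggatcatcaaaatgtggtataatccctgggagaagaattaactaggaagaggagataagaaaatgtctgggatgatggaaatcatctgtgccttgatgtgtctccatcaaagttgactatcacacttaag
Widest shE2F1 peak, chr11:117691008-117691157: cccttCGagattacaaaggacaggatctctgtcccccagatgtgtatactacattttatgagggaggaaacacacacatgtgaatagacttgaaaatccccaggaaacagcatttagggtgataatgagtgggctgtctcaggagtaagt

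The control window held no CG and the shE2F1 window held 1. Both were poorer in CG than the promoter windows above. The whole peaks held 47.9% GC in control shRNA and 49.3% in shE2F1.

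The peaks covered 143 Mb or 4.92% of the ungapped genome in control shRNA and 179 Mb or 6.14% in shE2F1. The median width was 722 bp in control shRNA, with quartiles of 374 and 1374 bp, and 811 bp in shE2F1, with quartiles of 418 and 1554 bp. Each peak carries a fold enrichment over background and a −log10 q value, both computed by the authors' peak caller and averaged over the peak. Most peaks were weak. The median fold was 3.17 in control shRNA and 2.95 in shE2F1, and the median −log10 q was 1.68 and 1.53, where 1 is the limit of the lists. A background could be solved for few of the short peaks. Its most frequent value was higher in shE2F1 than in control shRNA, by a ratio of 1.24, and the part of this difference in the longer shE2F1 list was not tested.

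The strongest peaks stood apart from the rest. A peak was placed at a promoter when its midpoint lay within 1 kb of any annotated transcription start site (TSS), in a gene body when it lay elsewhere in a gene, and otherwise between genes. Of the control shRNA peaks with −log10 q from 2 to 3, 9.02% were at promoters and the median width was 1011 bp. Of the 193 control peaks with −log10 q of 10 or more, 93.3% (88.8–96.4%) were at promoters and the median width was 403 bp. The same step was present in shE2F1, from 13.8% and 1155 bp to 95.2% (93.4–96.6%) of 726 peaks and 630.5 bp. The median GC content went with it, from 46.9% to 66.3% in control shRNA and from 47.4% to 65.8% in shE2F1, against 40.9% in the genome. In both libraries the strongest peaks were thus rich in GC and at promoters. They were not the only narrow ones, since the weakest peaks, with −log10 q just above 1, had a median width of 489 bp in control shRNA and 591 bp in shE2F1. Peaks of 5 kb or more had a median fold of 3.34 in control shRNA and 3.12 in shE2F1, the highest of the width classes in each.

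The strong class was larger in shE2F1. At −log10 q of 5 or more, control shRNA had 467 peaks and shE2F1 had 1626. 396 of the control peaks (84.8%, 81.2–87.9%) and 1516 of the shE2F1 peaks (93.2%, 91.9–94.4%) were at promoters. Their bases were 10.9 times more frequent at promoters than the area of promoters in the genome in control shRNA and 12.5 times in shE2F1. The wide class was nearly absent from them, since only 1 control peak and 4 shE2F1 peaks of 5 kb or more reached this strength. The −log10 q is averaged over the peak, so a short strong stretch counts for less in a wide peak. The part of this in the near absence was not tested.

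**Figure D1:**
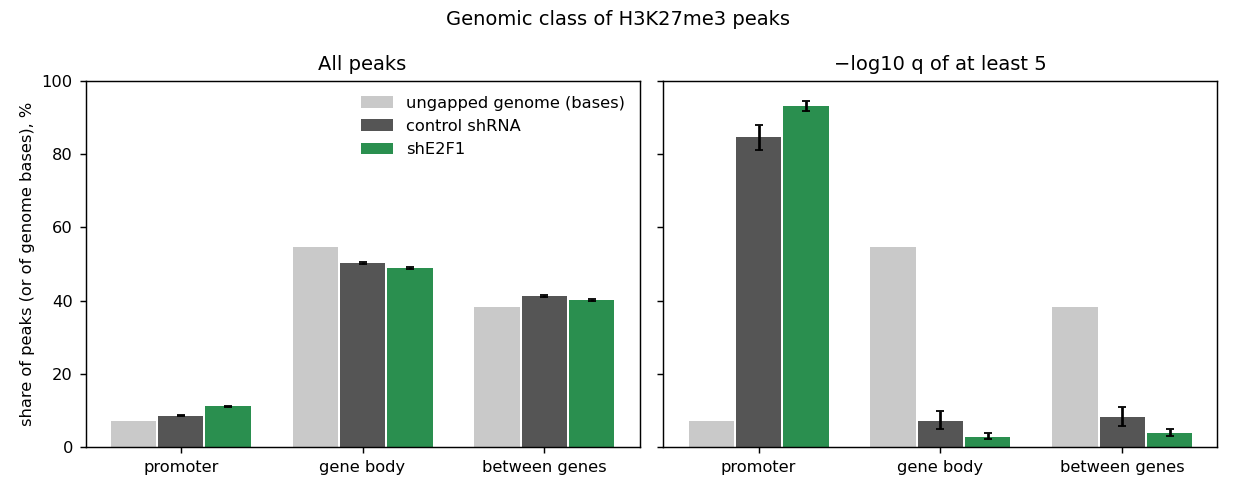
Share of H3K27me3 peaks (%) at promoters, in gene bodies and between genes in control shRNA (dark grey) and shE2F1 (green), with exact 95% intervals of counting error as bars, beside the share of ungapped genome bases in each class (light grey). All peaks (left) lay close to the genome's shares, whereas peaks with −log10 q of at least 5 (right) were at promoters in 84.8% of control shRNA and 93.2% of shE2F1 peaks.

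Over the whole lists, the peaks were spread over the genome almost by area. Promoters held 8.56% (8.41–8.72%) of control shRNA peaks and 11.1% (11.0–11.3%) of shE2F1 peaks, against 7.21% of the genome. Gene bodies held 50.3% and 48.8% of the peaks and 54.6% of the genome. Regions between genes held 41.2% and 40.0% of the peaks and 38.2% of the genome. Within gene bodies the midpoint lay in an intron for 93.9% of the peaks in both lists. The promoter class thus held the largest difference in share between the lists.

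Overlap between the libraries went up with the width of the peaks. Peaks of 5 kb or more numbered 2868 in control shRNA and 4557 in shE2F1 and held 14.7% and 19.4% of the covered bases. Every one of the 2868 control domains was overlapped by an shE2F1 peak, and 4551 of the 4557 shE2F1 domains (99.9%) were overlapped by a control peak. Peaks under 300 bp were overlapped less often, in 43.5% of cases for control shRNA and 28.2% for shE2F1. A wide peak has more bases in which to meet a peak of the other list, so the share of bases is the stricter measure. It went the same way, from 36.7% of bases shared in the narrowest to 81.4% in the widest control peaks and from 22.5% to 71.2% in shE2F1. Width was not the only property that went with overlap, since all 396 control promoter peaks with −log10 q of 5 or more also had a partner.

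**Figure D2:**
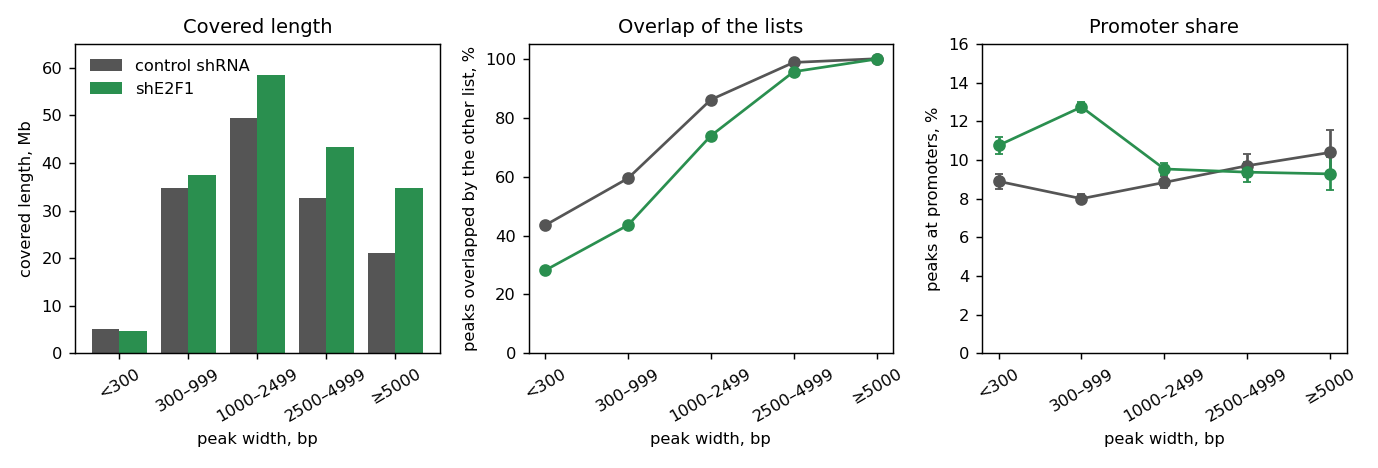
H3K27me3 peaks by width class (bp) in control shRNA (dark grey) and shE2F1 (green): covered length in Mb (left), peaks overlapped by a peak of the other list in % (middle) and peaks at promoters in % (right), with exact 95% intervals of counting error as bars. Overlap went up with width in both lists, to 100% and 99.9% at 5 kb or more, and the promoter share of shE2F1 was highest, at 12.7%, from 300 bp to under 1 kb.

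The promoter share separated the libraries most among narrow peaks. From 300 bp to under 1 kb, 8.00% (7.78–8.23%) of control shRNA peaks and 12.7% (12.5–13.0%) of shE2F1 peaks were at promoters. At 5 kb or more the values were 10.4% (9.30–11.6%) and 9.28% (8.46–10.2%), and these intervals overlapped. The promoter peaks found in only 1 list were also unlike. The 7654 shE2F1 promoter peaks with no control overlap had a median GC content of 63.2%, and the 2515 control promoter peaks with no shE2F1 overlap had 49.1%. The peaks in gene bodies and between genes that had no partner had medians from 46.6% to 47.2% in both lists.

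The widest single domains recurred in both lists. The widest control peak, chr20:58749148-58787862, spanned 38715 bp with a fold of 3.34, and shE2F1 peaks covered 95.4% of it. The widest shE2F1 peak, chr11:117670463-117711703 in DSCAML1, spanned 41241 bp with a fold of 3.05, and control peaks covered 89.4% of it. A domain in PKNOX2, a homeobox gene, spanned 35605 bp in shE2F1 and was covered to 97.7%. By contrast, the widest shE2F1 peak without any control overlap was 5813 bp long, in an intron of SIPA1L2, and the widest control peak without shE2F1 overlap was 4654 bp long, in an intron of GLYATL3. Peaks without a partner were thus far shorter than the widest domains in both lists. A wide peak meets a peak of the other list more easily wherever it lies, and the part of this in the contrast was not tested.

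The fold of most shared peaks was slightly lower in shE2F1, and the strongest promoter peaks were the exception. Over all 83644 control peaks with an shE2F1 partner, the median log2 ratio of fold (shE2F1 over control) was -0.08, and the fold was higher in shE2F1 in 31.6% of them. For the 2868 wide domains the median was -0.06, with 25.8% higher. For all 8100 shared promoter peaks it was -0.04 with 41.7% higher, and for gene bodies and regions between genes it was -0.08 in each. For the 396 promoter peaks with a control −log10 q of 5 or more, all of which had an shE2F1 partner, the median fold was 6.02 in control shRNA and 7.98 in shE2F1, the median log2 ratio was 0.38 with quartiles of 0.12 and 0.63, and 85.4% were higher in shE2F1. The 62 shared peaks of that strength away from promoters had a median log2 ratio of -0.48, and 24.2% of them were higher. Peaks picked for a high value in 1 library tend to be lower in the next. Where several shE2F1 peaks overlapped a control peak, the one of highest fold was taken as its partner, which can only raise the ratio. The part of either choice in these ratios was not tested. A fold averaged over a peak also depends on where its edges were drawn.

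The strongest peaks are listed next because they set the upper end of both libraries. In control shRNA the strongest peak was chr19:48509687-48510977, in an intron of LMTK3, a membrane-bound kinase gene, with a fold of 31.1 and −log10 q of 185. In shE2F1 the same place lay in a peak of 6070 bp that reached the LMTK3 start, with a fold of 20.8 and −log10 q of 141. It alone among the control peaks of highest fold or −log10 q lay away from a promoter, and its GC content of 57.5% was the lowest among them. The middle 150 bases of this peak held only 1 CG, unlike the promoter windows above. The start of CMTR1, an mRNA cap methyltransferase gene, at chr6:37432971-37433514 had a fold of 11.3 in control shRNA and 20.3 in shE2F1. KATNAL1, a gene for a microtubule-severing subunit, had a fold of 17.9 in control shRNA and 22.1 in shE2F1 close to its start.

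Gene starts were examined next, to ask which kinds of genes carried the peaks. For a gene, the promoter was the 1 kb on either side of its annotated start, and a peak counted when it overlapped that window by at least 1 bp. Of 19970 protein-coding genes, 4246 (21.3%) had a promoter peak in control shRNA and 8649 (43.3%) in shE2F1. A peak was present only in shE2F1 for 4813 genes (24.1%), only in control shRNA for 410 genes (2.05%) and in both for 3836 genes. At −log10 q of 5 or more the numbers were 460 genes (2.30%) in control shRNA and 1621 (8.12%) in shE2F1, and a peak of that strength was present only in shE2F1 for 5.86% and only in control shRNA for 0.0451%. At 2 or more these shares were 16.1% and 2.85%. These shares are the background against which each gene class below is set. Other gene types differed less, with 15.2% and 16.7% of 10007 processed pseudogenes and 16.6% and 25.2% of 18756 long non-coding RNA genes.

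**Figure D3:**
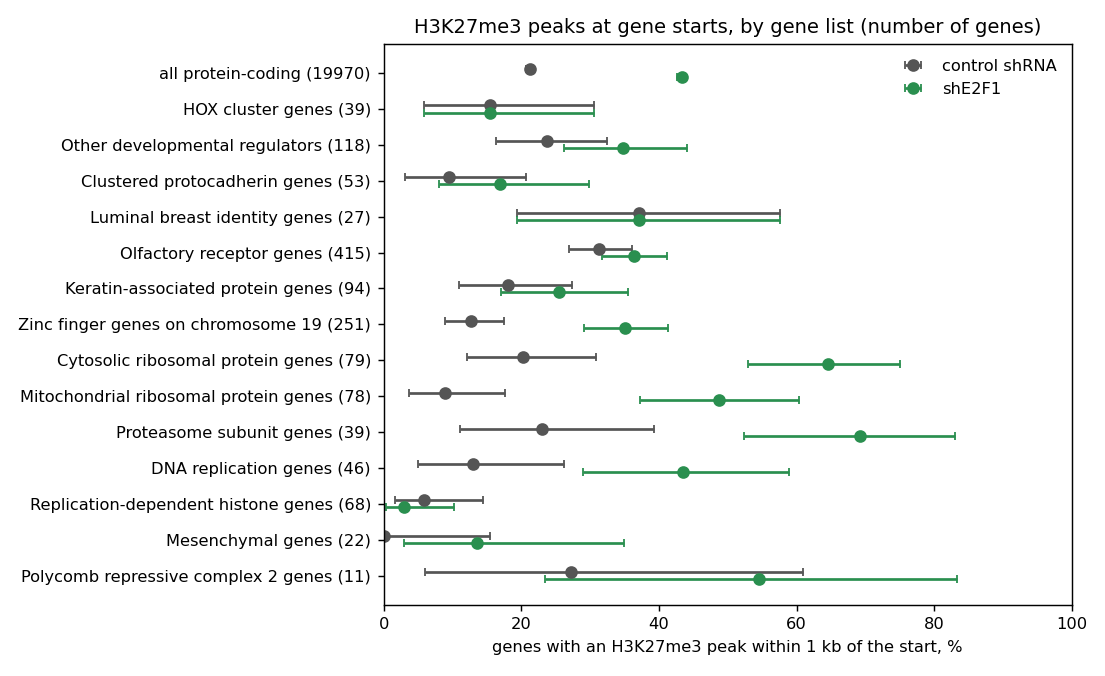
Share of genes (%) with an H3K27me3 peak within 1 kb of the annotated start in control shRNA (dark grey) and shE2F1 (green) for each gene list, with the number of genes in parentheses and exact 95% intervals of counting error as bars. The ribosomal protein, proteasome and DNA replication genes lay between 43.5% and 69.2% in shE2F1, whereas the HOX cluster and luminal genes had the same share in both libraries.

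The usual targets of polycomb did not lead the lists. Of 39 HOX cluster genes, the body plan regulators, 6 had a promoter peak in control shRNA and the same 6 had one in shE2F1, or 15.4% (5.86–30.5%) against 21.3% and 43.3% of all genes. Of 118 other developmental regulators, 28 (23.7%) had one in control shRNA and 41 (34.7%) in shE2F1, 19 (16.1%) only in shE2F1 and 6 only in control. Of 53 clustered protocadherin genes, neuronal adhesion genes of chromosome 5, 5 had one in control shRNA and 9 in shE2F1. No gene of these 3 lists had a peak at −log10 q of 5 or more in either library. Coverage of the gene bodies differed among the 3 lists. Peaks covered 16.5% of the bases of the developmental regulators in control shRNA and 20.8% in shE2F1, against 4.49% and 5.73% for all protein-coding genes. The HOX genes had 7.40% and 7.68%, and the protocadherin genes 3.69% and 7.45%. A domain of 5 kb or more touched 8.47% (4.14–15.0%) of the developmental regulators in control shRNA and 7.63% (3.55–14.0%) in shE2F1, and 4.16% and 5.96% of all protein-coding genes. It touched 1 of 39 HOX genes in control shRNA and 0 in shE2F1, and 0 of 53 protocadherin genes in control shRNA and 15 (28.3%) in shE2F1. Many of these genes overlap each other, so 1 domain can touch several.

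NKX2-1, a transcription factor gene of lung and thyroid, lay wholly within a domain of 12359 bp in control shRNA and 12594 bp in shE2F1. Its fold was 4.35 in control shRNA and 3.55 in shE2F1, and peaks covered 100% of the gene in both. For each gene, only the promoter peak of highest −log10 q in each library is given. At IRX2, a homeobox gene, this was a domain of 6543 bp with a fold of 3.47 in control shRNA. In shE2F1 it was a peak of 1566 bp on the other side of the start, with a fold of 3.55. Peaks covered 53.0% of the IRX2 gene in control shRNA and 59.0% in shE2F1, so both libraries had peaks within it. DLX4, another homeobox gene, had a fold of 3.76 over 1760 bp in control shRNA and 3.31 over 3500 bp in shE2F1. Among these strongest promoter peaks, only that of NKX2-1 was over 5 kb in both libraries. FOXC1, a forkhead gene, had no control peak and a peak of 358 bp with a fold of 3.79 in shE2F1. In the HOX clusters the peaks were modest throughout. HOXD13 had a fold of 3.34 in control shRNA and 3.15 in shE2F1, and HOXC13 was covered to 52.6% in control shRNA and 86.6% in shE2F1.

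The luminal breast identity genes, which are low in mesenchymal-like lines such as this one, had promoter peaks that both libraries held. 10 of 27 (37.0%, 19.4–57.6%) had a promoter peak in each, 9 of them in both. All protein-coding genes had 21.3% in control shRNA and 43.3% in shE2F1, and both values lie within that interval. A domain of 5 kb or more touched 3 of the 27 in each library (11.1%, 2.35–29.2%), against 4.16% and 5.96% of all protein-coding genes. OVOL1, an epithelial transcription factor gene, had a peak of 4529 bp with a fold of 4.58 and −log10 q of 6.50 in control shRNA, and 4461 bp, 3.40 and 3.95 in shE2F1. FOXA1, the pioneer factor of luminal cells, had 6690 bp and a fold of 3.87 in control shRNA, and 6799 bp and 3.11 in shE2F1. CDH1, which encodes E-cadherin, had 1487 bp and a fold of 4.03 in control shRNA, and 526 bp and 2.94 in shE2F1. All 3 genes had a lower fold in shE2F1, but they were picked for the highest −log10 q of this list in control shRNA. Of all shared control peaks, only 31.6% had a higher fold in shE2F1, so a lower fold was not particular to these genes. Of 22 mesenchymal genes, which are usually active in this line, 0 had a promoter peak in control shRNA, where the interval reaches 15.4%. In shE2F1, 3 (EGFR, FOSL1 and TGFBR2) had one, or 13.6% (2.91–34.9%). Both shares were below those of all protein-coding genes.

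Usually silent genes with few CpGs carried peaks as well. Of 415 olfactory receptor genes, 130 (31.3%, 26.9–36.0%) had a promoter peak in control shRNA and 151 (36.4%, 31.7–41.2%) in shE2F1, 34 (8.19%) only in shE2F1. Peaks covered 14.7% of their bases in control shRNA and 18.4% in shE2F1. Of 94 keratin-associated protein genes of hair, 17 (18.1%) had a promoter peak in control shRNA and 24 (25.5%) in shE2F1. All protein-coding genes had 21.3% and 43.3%. CpG-poor promoters with no E2F1 peak, a class defined below, had 23.6% and 28.2%, with 8.28% only in shE2F1. The olfactory share only in shE2F1 was thus close to that of this class. The fold at OR51F2, whose promoter peak had the highest −log10 q of the list in control shRNA, was 5.61 there and 3.95 in shE2F1. At OR10H4, which had the highest in shE2F1, it was 4.35 in control shRNA and 4.51 in shE2F1. OR8S1 was covered to 100% in both. Olfactory receptor genes stand in clusters, so neighbours can share a domain and are not independent.

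Genes that are usually active in every cell showed the largest differences between the libraries among the 14 gene lists. Of 79 cytosolic ribosomal protein genes, 16 (20.3%) had a promoter peak in control shRNA and 51 (64.6%, 53.0–75.0%) in shE2F1, with 35 (44.3%) only in shE2F1 and 0 only in control. Of 78 mitochondrial ribosomal protein genes, 7 had one in control shRNA and 38 in shE2F1. Of 39 proteasome subunit genes, 9 had one in control shRNA and 27 (69.2%, 52.4–83.0%) in shE2F1. All these shares present only in shE2F1, from 39.7% to 46.2%, were above the 24.1% of all protein-coding genes. They were close to the 41.4% of CpG-rich promoters with an E2F1 peak, the class to which most of these genes belong. At −log10 q of 5 or more, 23 of the 79 cytosolic ribosomal protein genes (29.1%) had a peak in shE2F1 and 4 in control shRNA, against 8.12% and 2.30% of all genes.

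The peaks of these genes were narrow. At RPLP2 the peak was 815 bp wide with a fold of 6.70 and −log10 q of 14.7 in control shRNA, and 1735 bp, 12.0 and 47.0 in shE2F1. At RPL13A, another ribosomal protein gene, the fold was 6.61 in control shRNA and 9.41 in shE2F1. At MRPL4, of the mitochondrial ribosome, it was 4.90 and 10.0, and at PSMB2, a subunit of the proteasome core, it was 5.65 and 9.97. The fold was not higher in shE2F1 at every strong promoter of these lists. Among other proteasome genes picked for a high −log10 q in control shRNA, PSMC1 went from 4.57 to 3.94 and PSMD4 from 5.649 to 5.399. Among those picked for a high −log10 q in shE2F1, PSMB1 went from 3.77 to 6.01 and PSMD2 from 3.64 to 5.63. The median width of the promoter peaks of cytosolic ribosomal protein genes was 421.5 bp in control shRNA and 511 bp in shE2F1, against 1766 and 1507 bp for the developmental regulators. No cytosolic ribosomal protein, proteasome or DNA replication gene was touched by a domain of 5 kb or more in either library, and 1 of the 78 mitochondrial ribosomal protein genes was in each.

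The DNA replication genes, classical E2F targets, lay nearer to the average. 6 of 46 (13.0%) had a promoter peak in control shRNA and 20 (43.5%, 28.9–58.9%) in shE2F1, 14 (30.4%) only in shE2F1. Of the 46 promoters, 40 had an E2F1 peak and 38 were CpG-rich. The 30.4% was above the 24.1% of all protein-coding genes and below the 41.4% of CpG-rich promoters with an E2F1 peak. At PRIM1, a primase subunit gene, control shRNA gave a fold of 6.20 and shE2F1 gave 9.89. FEN1, the flap endonuclease gene, went the other way, from 6.68 in control shRNA to 4.74 in shE2F1. The replication-dependent histone genes, active in S phase, stood apart from the other usually active lists. Only 4 of 68 had a peak in control shRNA and 2 in shE2F1, no gene in both, and none reached −log10 q of 2, although 42 of the 68 promoters were CpG-rich and 33 had an E2F1 peak.

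Zinc finger genes of chromosome 19 had a promoter peak in 32 of 251 (12.7%) in control shRNA and 88 (35.1%) in shE2F1. A peak was present only in shE2F1 for 57 (22.7%), which is close to the background of 24.1%. At ZNF615 the fold was 9.46 with −log10 q of 20.3 in control shRNA and 17.2 with 59.8 in shE2F1. At ZNF180 it was 4.61 and 10.3. At ZNF274, whose protein helps to silence zinc finger genes, it was 10.3 in control shRNA and 8.45 in shE2F1. The direction was thus not the same at every strong promoter.

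The genes of PRC2 itself had narrow promoter peaks. 3 of 11 had a peak in control shRNA (EZH2, JARID2 and MTF2) and 6 in shE2F1, or 27.3% (6.02–61.0%) and 54.5% (23.4–83.3%). These intervals hold the 21.3% and 43.3% of all protein-coding genes. The 27.3% with a peak only in shE2F1 was close to the background of 24.1%. At EZH2 the peak was 289 bp wide with a fold of 3.51 and −log10 q of 4.61 in control shRNA, and 1508 bp, 4.59 and 10.9 in shE2F1. At JARID2, an accessory subunit gene, the fold was 5.25 in control shRNA and 7.90 in shE2F1. SUZ12 had none in either library. E2F1 had no control peak and a peak of 784 bp with a fold of 2.91 and −log10 q of 2.96 in shE2F1. Among the cell cycle genes named by the study, CCNB1, the cyclin of mitosis, had no control peak and a peak of 574 bp with a fold of 2.42 and −log10 q of 1.05 in shE2F1, near the limit of the list, and RRM2, a ribonucleotide reductase subunit gene, had none in either library. GAPDH, a glycolysis gene used as a reference for active promoters, had no control peak and a peak of 991 bp with a fold of 3.29 in shE2F1. ACTB, the other such reference, had none at its annotated gene start, but that start is not its usual TSS. When every annotated start of a gene was counted, ACTB had a peak in both libraries, and so did EED.

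E2F1 peaks and CpG content split the promoters further. A promoter was called E2F1-bound when a summit of any E2F1 list lay in it, and CpG-rich when its GC content was at least 50% and its observed over expected CpG at least 0.6. The E2F1 lists were unequal, with 1056 peaks in untreated cells, 15703 with DMSO and 14276 with GSK126. Only 985 promoters had a summit in all 3 lists, so the bound class rests mainly on the DMSO and GSK126 lists. Of 9012 E2F1-bound promoters, 17.1% (16.3–17.9%) had an H3K27me3 peak in control shRNA and 56.3% (55.2–57.3%) in shE2F1. Of 10958 promoters with no E2F1 peak, 24.7% (23.9–25.5%) had one in control shRNA and 32.7% (31.8–33.5%) in shE2F1. In control shRNA the bound promoters thus carried fewer peaks, and in shE2F1 more. At −log10 q of 5 or more the order in control shRNA turned, with 4.35% of bound and 0.621% of unbound promoters. The lower share of bound promoters in control shRNA therefore came from weak peaks.

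Within CpG-rich promoters, the shares were 17.6% and 58.5% for the 8066 bound and 26.8% and 42.1% for the 3532 unbound, in control shRNA and shE2F1. Within CpG-poor promoters they were 13.4% and 37.2% for the 946 bound and 23.6% and 28.2% for the 7426 unbound. The difference between the libraries was thus larger at bound promoters in both CpG classes, and larger at CpG-rich than CpG-poor promoters with no E2F1 peak. Accessibility of these promoters was not analysed here, and its part in the split was not tested. The E2F1 peaks also come from cells that carried neither hairpin.

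**Figure D4:**
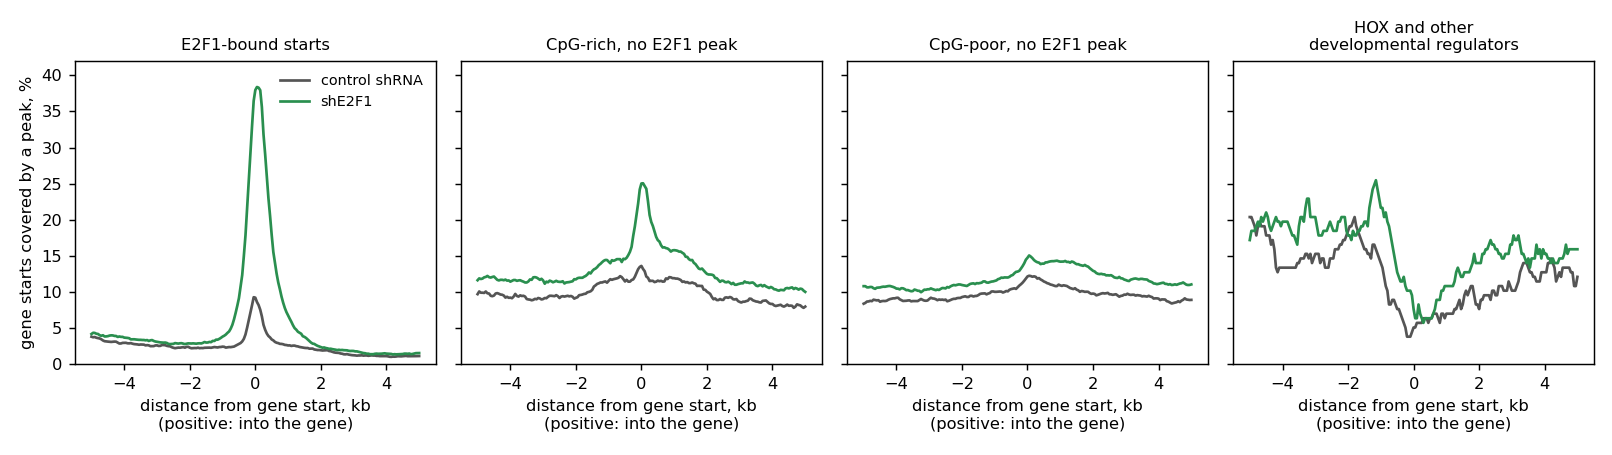
Share of gene starts (%) covered by an H3K27me3 peak at each distance from the start (kb, positive into the gene) in control shRNA (dark grey) and shE2F1 (green), for protein-coding genes with an E2F1 peak, CpG-rich and CpG-poor genes without, and 157 HOX and other developmental genes. E2F1-bound starts showed a narrow rise, to 9.22% at the start in control shRNA and 38.0% in shE2F1, over a low flank, whereas developmental genes showed a dip at the start in both.

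The coverage around gene starts differed among the classes. At E2F1-bound starts, 9.22% were covered at the start and 2.19% in the flank 4 to 5 kb away in control shRNA, and 38.0% and 2.72% in shE2F1, so the start stood 4.21 and 14.0 times above the flank. At starts with no E2F1 peak the ratio was 1.43 and 1.65. The CpG-rich ones among them also had a rise at the start, which was larger in shE2F1. There, 13.62% were covered at the start in control shRNA and 25.03% in shE2F1, over flanks of 8.88% and 11.11%. Their ratios were 1.53 and 2.25, and those of the CpG-poor starts with no E2F1 peak were 1.38 and 1.35. At the 157 HOX and other developmental genes the start lay below the flank, with 5.10% (2.23–9.79%) against 15.1% in control shRNA and 7.64% (4.01–13.0%) against 17.3% in shE2F1. These developmental genes thus had high flanks with a gap over the start, while the bound starts had low flanks with a summit.

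The E2F1 summits gave the same split among the peaks. A summit of any E2F1 list lay in 1.43% of all control shRNA peaks and 4.10% of all shE2F1 peaks. For peaks of −log10 q of 5 or more it was 53.5% (48.9–58.1%) and 70.5% (68.2–72.7%). For domains of 5 kb or more it was 2.09% (1.60–2.68%) and 3.12% (2.63–3.66%), although these are the longest peaks. The wide domains thus held few E2F1 summits and most of the strong narrow peaks held one. Most of these strong peaks were at promoters, where E2F1 summits are frequent. Of all protein-coding promoters 45.1% were E2F1-bound, and of CpG-rich ones 69.5%. The part of promoter location in the shares of the strong peaks was not tested.

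Gene bodies were covered slightly more in shE2F1. Of 14856 protein-coding genes of 10 kb or longer, the covered share of the body was higher in shE2F1 for 7965 and lower for 1474. The median difference was only 0.12 percentage points, and the body as measured begins at the gene start and so includes part of the promoter peaks. Bodies covered to 50% or more numbered 282 in control shRNA and 426 in shE2F1. IQCA1L had the highest share in shE2F1, 94.3%, against 89.0% in control shRNA. RSPO1, a Wnt pathway ligand gene, was covered to 100% in control shRNA and 81.5% in shE2F1. CD300LF, a myeloid receptor gene, was covered to 94.8% and 91.3%, and THPO, the thrombopoietin gene, to 93.0% and 77.4%. Among the largest increases in shE2F1, KIR2DL4, a natural killer cell receptor gene, went from 27.04% to 82.8%, GRM2, a glutamate receptor gene, from 4.58% to 50.5%, and LHX5, a homeobox gene of the nervous system, from 4.09% to 45.8%. Among the largest decreases, CLEC4F, a liver macrophage lectin gene, went from 71.2% to 39.1% and FMOD, the fibromodulin gene, from 89.6% to 62.5%. At E2F1-bound genes peaks covered only 1.72% of gene body bases in control shRNA and 2.33% in shE2F1, against 6.83% and 8.58% at genes with no E2F1 peak. E2F1-bound genes thus had more promoter peaks in shE2F1 and less body coverage in both libraries than the other genes.

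Every chromosome was covered more in shE2F1. The covered share of the ungapped length ran from 2.12% on chromosome X to 13.4% on chromosome 20 in control shRNA, with a median of 4.73%, and from 2.79% on X to 16.1% on 20 in shE2F1, with a median of 6.08%. The log2 ratio of covered length (shE2F1 over control) was above 0 on 23 of 23 chromosomes, from 0.20 on chromosome 6 to 0.56 on chromosome 22. Chromosome 20 had nearly the same density in both, with 80.4 and 80.9 peaks per Mb, and its peaks were wider in shE2F1, with a median of 1057.5 against 950 bp. Across the 23 chromosomes, coverage followed the density of protein-coding genes, with Spearman's rho of 0.67 in control shRNA and 0.76 in shE2F1, and the lists gave nearly the same order, with rho of 0.98. These values describe 23 points that share a library and its base composition. Chromosome 19, the densest in genes, had the highest promoter share, 18.1% in control shRNA and 23.1% in shE2F1. The number of copies of each chromosome in this line was not analysed here, and its part in the order was not tested.

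**Figure D5:**
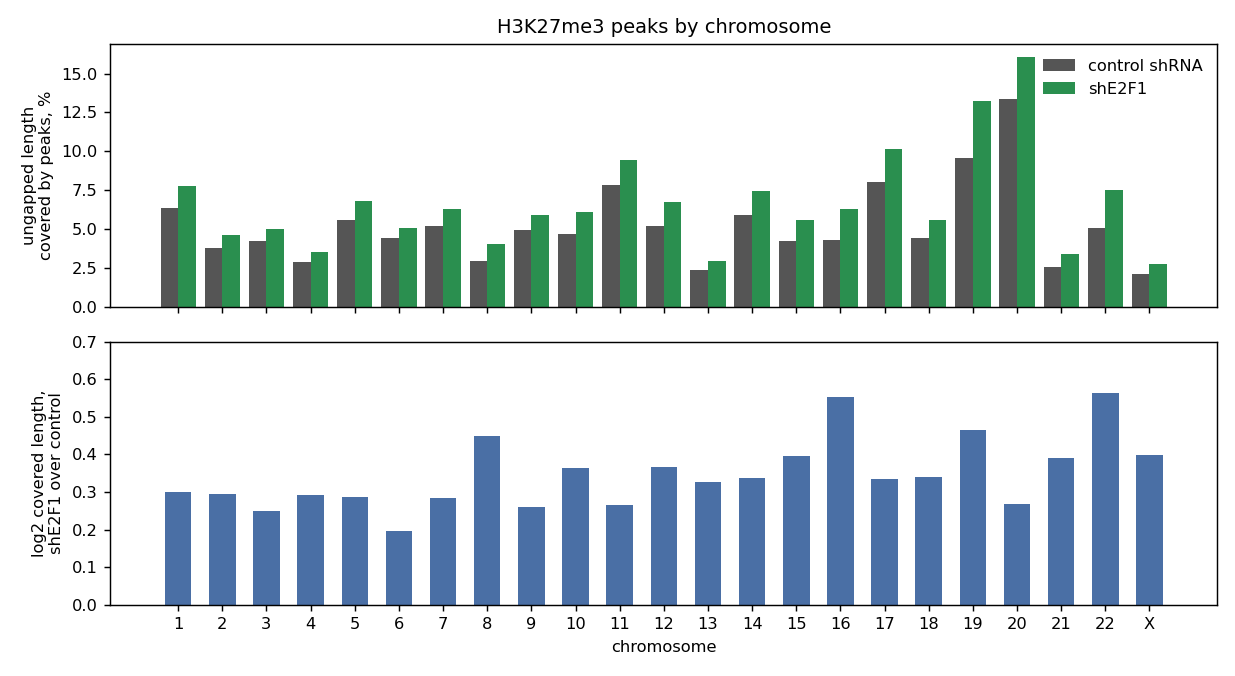
Share of the ungapped length of each chromosome covered by H3K27me3 peaks (%, upper) in control shRNA (dark grey) and shE2F1 (green), and the log2 ratio of covered length, shE2F1 over control (lower). Chromosome 20 was covered most, at 13.4% and 16.1%, and X least, and all 23 ratios were above 0, from 0.20 to 0.56.

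The direction of the difference in amount depended on the strength of the peaks counted. With all peaks the log2 ratio of covered length was 0.32. At −log10 q of 2 or more it was -0.15, with 32376 peaks in control shRNA and 25174 in shE2F1, and at 5 or more it was 2.35. The promoter share, by contrast, was higher in shE2F1 at each of these limits, by 2.58, 11.4 and 8.44 percentage points. With equal numbers, the 10000 peaks of highest −log10 q in each list, promoters held 16.4% of control shRNA peaks and 38.2% of shE2F1 peaks.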

How the data were processed

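The authors' methods state sonication of chromatin for transcription factors and micrococcal nuclease for histone marks (the labels describe sonication), paired-end sequencing, trimming with cutadapt 4.5, alignment to GRCh38 with Bowtie2 2.5.2 and peak calling with MACS2 2.2.9.1 at q of 0.01, with a broad cutoff of 0.1 for H3K27me3. Peaks were called per library. The deposited fold is a ratio of signal to background, averaged over a broad peak. The authors also deposited −log10 of the p-value and of the q-value. The deposited score, a multiple of −log10 q, was not used. Read depth is unknown, and the control library behind the fold is not given in the sources used here.

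Peaks were classed against GENCODE release 44 on hg38, a later annotation than the authors used, which gave 218307 distinct TSSs on 23 chromosomes. Peaks overlapped from 1 bp. The background of short peaks, most often 1.02 fragments in the control shRNA and 1.27 in the shE2F1 list, was solved from fold and p within 2e-05, for 1510 of 21884 control shRNA and 1246 of 19323 shE2F1 peaks under 300 bp, and for 32 and 17 of them when the fold was altered by 0.3%. Promoter sequences were from RefSeq (GRCh38.p14), and those shown include up to 30 bases of annotated exon. Named genes were, in each list and library, up to 3 members with the highest −log10 q of a promoter peak, with the 5 genes of 10 kb or more whose bodies were covered most in each library, the 5 largest changes in that share in each direction, and 8 control genes. Named peaks were the 3 strongest, of highest fold, widest and widest without overlap, and a selection of them is given. The gene lists and comparisons were chosen with earlier results of these data known. Scripts used Python 3.11.15, numpy 2.4.6, pandas 2.3.3 and scipy 1.17.1 and were tested on simulated peaks.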

Additional observations from a re-analysis of the deposited data

How the results depend on the processing

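Differences are shE2F1 minus control shRNA, ratios are log2 of shE2F1 over control, and pairs of values are control shRNA and shE2F1. The limit on −log10 q changed the most values. At 2 or more the ratio of peak number turned from 0.13 to -0.36 and that of covered length from 0.32 to -0.15, and at 5 or more they were 1.80 and 2.35. For the 10000 strongest peaks the covered length ratio was 0.071. At 2 or more, the shares of peaks differed by 11.4 points at promoters, -6.65 in gene bodies and -4.71 between genes, and the share of protein-coding promoters with a peak by 13.3 points. Median widths were 946 and 990 bp, GC contents 47.1 and 48.2%, bases in peaks of 5 kb or more 27.9 and 37.2%, shared bases 37.4 and 41.5% and start over flank ratios 2.79 and 7.50. At 5 or more, the shares of peaks differed by 8.44 points at promoters, -4.24 in gene bodies and -4.20 between genes, and the share of protein-coding promoters with a peak by 5.81 points. Median widths were 369 and 590 bp, GC contents 65.1 and 67.6%, bases in peaks of 5 kb or more 2.52 and 2.04%, shared bases 80.4 and 15.8% and start over flank ratios 74.5 and 73.0. For the 10000 strongest peaks, the shares of peaks differed by 21.8 points at promoters, -12.0 in gene bodies and -9.82 between genes, and the share of protein-coding promoters with a peak by 11.9 points. Median widths were 744 and 745 bp, GC contents 47.4 and 50.4%, bases in peaks of 5 kb or more 25.7 and 29.7%, shared bases 23.8 and 22.7% and start over flank ratios 6.17 and 15.8. The bound minus unbound promoter share in control shRNA turned from -7.55 points to 1.03, 3.73 and 4.57 under these limits, and it was -9.26 within CpG-rich promoters. In shE2F1 it was 12.7 at 5 or more, 16.4 within CpG-rich promoters and 27.7 with E2F1 summits in all 3 lists. Joining peaks less than 1 kb apart gave 32.4 and 31.8% of bases in peaks of 5 kb or more and median widths of 793 and 857 bp, and joining those less than 3 kb apart gave 75.7 and 75.5% and 1276.5 and 1149 bp, so the share of wide domains no longer separated the libraries. Peaks overlapped over 50% of their length made up 50.6 and 36.4% of the lists. The share of peaks at promoters differed by 2.25 points with promoters of 2.5 kb either side and by 1.18 counted by bases, and the gene body share by -0.36 by bases. The share of protein-coding promoters with a peak differed by 18.8 points from 1 kb upstream to 100 bp downstream, 22.9 with 2.5 kb either side, 20.2 by the peak midpoint and 24.1 with any annotated start, an alternative chosen after seeing the data. The other 14 values kept their direction and moved within counting error. The causes of these changes were not tested. No paired analysis was possible because each group has 1 library. With 1 library a side, the spread between replicate libraries is unknown, and with no read counts the depth behind a missing peak is unknown, so a peak in 1 list only is a call at a limit and not a measured absence.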
